A study of Mus musculus with 4 samples.

Results

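The smooth-muscle actin cytoskeleton genes examined here are 10 genes that encode actins, actin-binding proteins and a myosin light chain of contractile cells: Acta2, Actg2, Tagln, Cnn1, Cnn2, Cald1, Tpm1, Tpm2, Myl9 and Synpo2l. They were found by symbol in the deposited tables, which hold 25239 gene symbols, and all 10 were among the 14525 genes tested. Tagln, Acta2 and Synpo2l were picked because earlier results from these data showed that they rose, so their values are given as a description with no p. The other 7 complete the set by function.

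The cells were mouse embryonic stem cells (mESC) of the genotype Ogt fl/fl, in which the gene of O-GlcNAc transferase is flanked by loxP sites. The Ogt iKO group (induced knockout) was grown for 6 days with 4-OHT (4-hydroxytamoxifen) and has 2 libraries of polyadenylated RNA. The control group was grown without 4-OHT for the same 6 days and has 2 libraries. Both groups grew with LIF and a serum replacement on mouse embryonic fibroblasts (MEFs) treated with mitomycin C, and viable cells were sorted to remove the fibroblasts; the labels name CD90.2 as the antigen that marks mESC and CD326 as the antigen used against MEFs. CD90 is usually found on fibroblasts and CD326 on epithelial and stem cells, so the roles given to the antibodies in the sort are in doubt. The treated cultures alone were also sorted for YFP, no culture with 4-OHT and an unfloxed Ogt gene is described, and the labels name neither the recombinase nor its promoter. These differences cannot be told apart from the loss of Ogt.

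In smooth muscle, actin filaments slide past myosin after the regulatory light chain of myosin is phosphorylated. Calponin, caldesmon and tropomyosin lie along the filament, and transgelin (also called SM22) bundles it. The genes are known targets of serum response factor (SRF), which binds a sequence called the CArG box together with its cofactors of the myocardin family (myocardin, MRTF-A and MRTF-B). The same genes are active in cultured fibroblasts and in cells under mechanical load, so they do not mark smooth muscle alone.

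The CArG box (both strands, exact match, 10 bases) was looked for in RefSeq promoter windows of GRCm38.p6, which run from 250 bases before to 50 bases after an annotated transcript start. It was present in 1.63% of all 32851 windows and in 1.46% of the 11446 tested genes that have a window. Of the members, 8 had a window, and the box was found in those of Cnn2 and Myl9. Tagln and Actg2 had no window and were not searched. Boxes outside the windows or with a changed base were not looked for in any gene. The stretches of these windows that lie outside annotated exons are shown in full because they hold the only matches among the 8 members searched. The CArG box is in capitals. They are chr10:79988350-79988583 on the plus strand for Cnn2, where the box begins 56 bases before the start, and chr2:156775214-156775407 on the plus strand for Myl9, where it begins 161 bases before the transcript start used for the window, which lies inside the annotated gene.
Cnn2: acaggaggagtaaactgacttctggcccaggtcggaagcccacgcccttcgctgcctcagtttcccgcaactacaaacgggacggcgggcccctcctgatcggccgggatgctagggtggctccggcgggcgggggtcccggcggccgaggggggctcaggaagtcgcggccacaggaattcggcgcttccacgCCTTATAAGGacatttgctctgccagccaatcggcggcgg
Myl9: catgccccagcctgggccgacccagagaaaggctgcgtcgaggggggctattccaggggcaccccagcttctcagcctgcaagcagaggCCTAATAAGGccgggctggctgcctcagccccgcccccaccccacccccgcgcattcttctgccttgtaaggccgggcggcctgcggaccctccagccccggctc

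Among the paralogs of the members, 4 of the 12 with a window held the box: Acta1, Actc1, Actg1 and Myl6. The skeletal and cardiac actin genes are shown for comparison, with 20 bases on each side, at chr8:123894819-123894868 for Acta1 and chr2:114052893-114052942 for Actc1, both on the minus strand.
Acta1: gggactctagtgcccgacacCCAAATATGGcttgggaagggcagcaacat
Actc1: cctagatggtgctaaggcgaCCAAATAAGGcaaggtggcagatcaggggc
These matches are a description of the letters in a window and not of binding.

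The libraries held 14668489 to 16504204 counts, so that 3 counts, the limit that a count of 0 allows, were 0.175 to 0.196 CPM (counts per 1000000 counts of the TMM-scaled library size; counting error only). Ogt, the targeted gene, was at 25.6 and 25.1 CPM in the Ogt iKO libraries and at 191 and 203 CPM in the controls. Of all genes tested, 33.2% were called higher and 32% lower in Ogt iKO, which is 4827 and 4651 genes at an adjusted p under 0.05 (edgeR quasi-likelihood test, Benjamini-Hochberg). Scaled by library totals alone the counts were 6116 and 3282, and the median change over all genes (log2) moved from 0.02 to 0.19, so changes are given relative to the bulk of genes. Nothing in the labels says that the 2 libraries of a group came from separate cultures, so p-values measure the spread between these libraries.

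Fibroblast transcripts differed between the Ogt iKO libraries, and fibroblasts are known to express the members too. All 28 markers on the fibroblast list were higher in Ogt iKO replicate 1 than in replicate 2, beside 7232 of the 14525 genes tested. Their summed level was 5785 and 2468 CPM in these libraries against 3456 and 3836 CPM in the controls. Col1a1, the main chain of type I collagen, was at 904 and 180 CPM in Ogt iKO and at 294 and 314 CPM in control. Of 8 defining markers (Col1a1, Col1a2, Col3a1, Dcn, Lum, Postn, Thy1 and Pdgfra) 0 were at 0 counts in any library. Each Ogt iKO library is therefore also compared with the controls apart. The stem cell identity of the samples was visible in all libraries, with a summed level of 15 embryonic stem cell markers of 3855 and 4282 CPM in Ogt iKO and 6653 and 6645 CPM in control. Of these markers 14 were lower in Ogt iKO and 0 higher, beside 32% and 33.2% of all genes tested, with log2 fold changes of -1.59 for Sox2, -1.82 for Klf4, -1.47 for Nanog and -1.49 for Fgf4. In bulk RNA, fewer cells of a type and less RNA per cell cannot be told apart.

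Of the 7 members that were not picked for their rise, 6 rose, 0 fell and 1 did not pass the threshold, where 33.2% of all genes tested were called higher and 32% lower. The 3 picked genes had higher levels in both Ogt iKO libraries than in both controls. The median log2 fold change was 1.15 over the 7 and 1.38 over all 10, against 0.02 over all genes tested. These medians describe members that were chosen with earlier results known. On TMM-scaled library sizes, 9 of the 10 members lay above both controls in both Ogt iKO libraries and 1, Tpm2, lay below both. Groups that do not overlap were found with Ogt iKO higher for 42.3% and with Ogt iKO lower for 40.9% of all genes tested. Ogt iKO replicate 1 lay above both controls for 47.9% of these genes and below both for 44.6%, and replicate 2 for 45.9% and 46%.

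**Figure D1:**
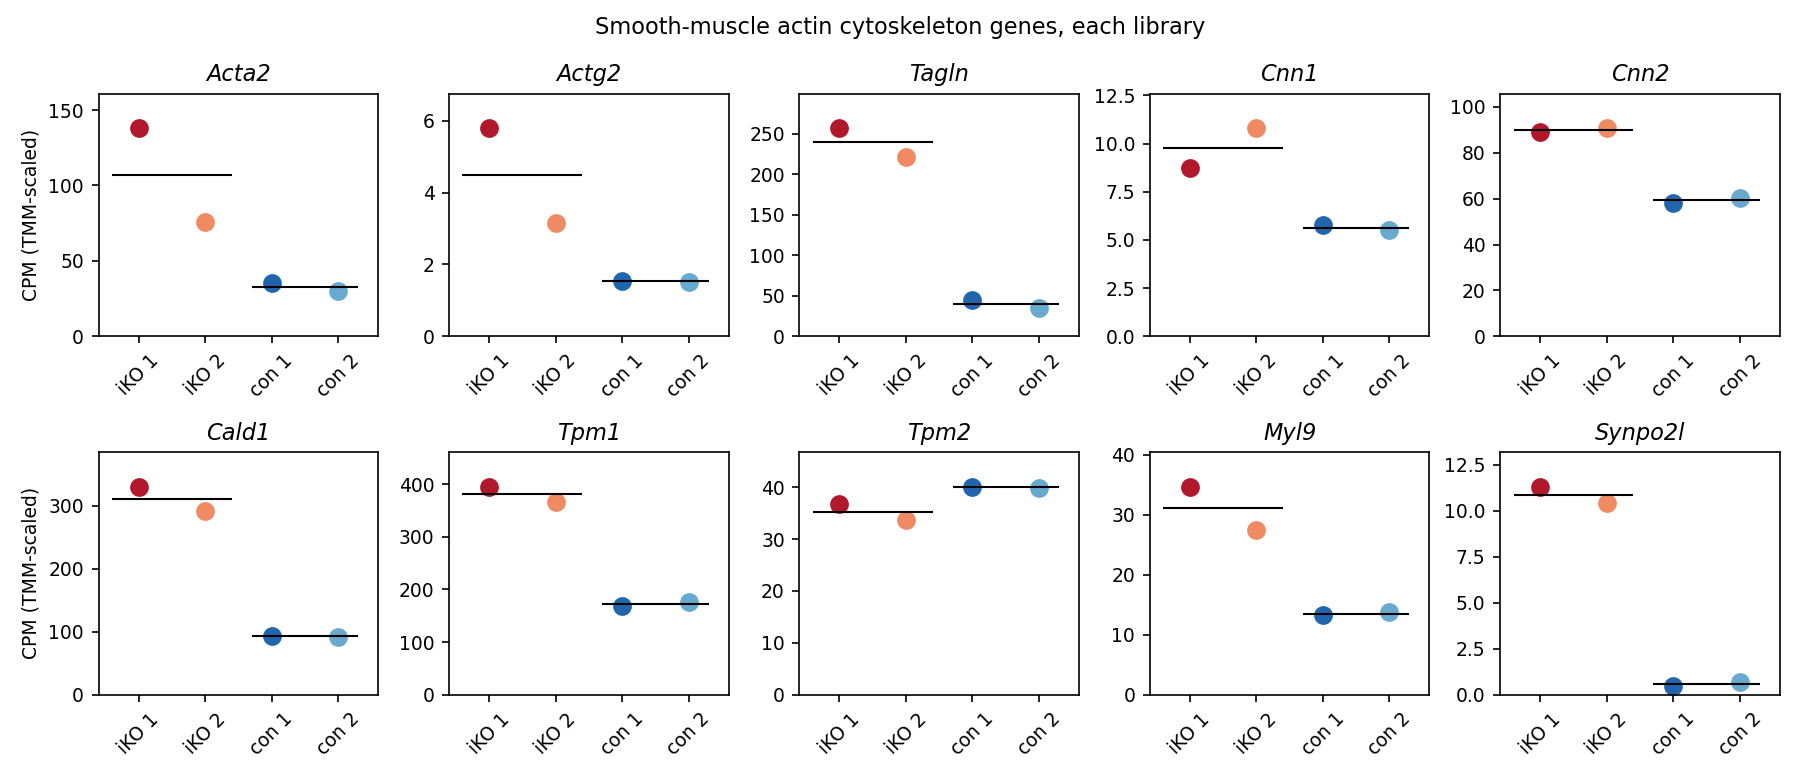
Level of each of the 10 genes in CPM on TMM-scaled library sizes (y axis, linear from 0, with its own range in each panel) in the 4 libraries (x axis: iKO, Ogt iKO; con, control); points are libraries and black bars are group means of 2. In 9 panels both Ogt iKO points lie above both controls, and in the Tpm2 panel both lie below.

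Both smooth muscle actin genes were higher in Ogt iKO than in control, most of all in replicate 1. Acta2 (chromosome 19 from 34240336 to 34255585, GRCm38, minus strand) encodes smooth muscle alpha-actin and was at 138 and 75.9 CPM in Ogt iKO and at 35.1 and 30.0 CPM in control. Its log2 fold change was 1.72 (SE 0.240), a 3.29-fold higher level, and the Ogt iKO libraries differed from each other more than the controls did. Ogt iKO replicate 1 lay 2.09 above the control mean on the log2 scale and replicate 2 lay 1.22 above it. Actg2 (chromosome 6 from 83512909 to 83536251) encodes enteric smooth muscle gamma-actin and showed the same kind of spread at a much lower count. Treated libraries held 99 and 49 counts of it and controls 24 and 23, giving 1.56 on the log2 scale (SE 0.334, adjusted p 0.00340, edgeR). With an Ogt iKO library left out, 1 treated library remains and the spread comes from the controls alone, so only fold changes are given. On the log2 scale Actg2 had 1.05 without replicate 1 and 1.90 without replicate 2. The corresponding values of Acta2 were 1.23 and 2.06.

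The actins of striated muscle rose as well, while Actb, a cytoplasmic actin, did not. Acta1, skeletal alpha-actin, was at 12.6 and 9.03 CPM in Ogt iKO and 2.26 and 1.76 CPM in control (a gain of 2.42 on the log2 scale, SE 0.244, adjusted p 5.300e-05, edgeR). Actc1, cardiac alpha-actin, was counted 57 and 44 times against 19 and 6 times, and its difference of 1.92 on the log2 scale (SE 0.418, adjusted p 0.00362, edgeR) ran from 1.32 without control replicate 2 to 2.95 without control replicate 1. It passed the filter on low counts through the treated group, since a control library lay under the minimum. Actb, the beta-actin of all cells, was at 2973 and 3047 CPM against 3369 and 3304 CPM. Its log2 fold change of -0.15 was called (adjusted p 0.0464, edgeR) but was 0.02 with library totals as the scale, and was not made with RLE factors or with the replicate number as a block (adjusted p 0.0613 and 0.161, edgeR) or without Ogt iKO replicate 1, control replicate 1 or control replicate 2. Per kilobase of exon, Actb made up 93.3% and 96.1% of the summed level of the 6 actins in Ogt iKO and 98.3% and 98.5% in control. On that scale Acta2 went from 1.25% and 1.09% in control to 5.29% and 2.92% in Ogt iKO. Actg1, cytoplasmic gamma-actin, had no more than 122 counts in any library. Of the 50-base stretches in its transcripts, 37.4% are shared with transcripts of other genes, which leaves its level uncertain (log2 fold change -0.32, adjusted p 0.223, edgeR). The shares of Actb and Acta2 carry that doubt, since the sum of the 6 actins includes Actg1.

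Tagln, the transgelin gene (chromosome 9 from 45929628 to 45936058, minus strand), was the member with the largest gain after Synpo2l. It was at 257 and 222 CPM in Ogt iKO and at 44.2 and 34.9 CPM in control, with a log2 fold change of 2.60 (SE 0.114). The Ogt iKO libraries lay 2.71 and 2.50 above the control mean, 0.21 apart, while fibroblast markers lay a median of 1.89 apart in the same libraries. Opposite-strand exons, among them those of Pcsk7, cover 67.9% of the exon length of Tagln, and the strand counted is not given in the sources used here. Pcsk7, a proprotein convertase gene, was at 25.2 and 25.5 CPM in Ogt iKO and 17.9 and 16.8 CPM in control. Tagln2, a paralog found in many cell types, rose less (log2 fold change 0.45, SE 0.0694, adjusted p 5.346e-04, edgeR), and Tagln3, a neuronal paralog, had 17 to 22 counts in each library and did not pass the threshold. Per kilobase of exon, Tagln was below Tagln2 in both controls (20.8 and 16.7 against 32.1 and 30.2 counts per kilobase and 1000000 counts) and above it in both Ogt iKO libraries (137 and 118 against 47.4 and 48.4).

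Among the calponins, which bind actin and slow the myosin motor, the changes were smaller. Cnn1 (chromosome 9 from 22099221 to 22109221), the smooth muscle calponin, was at 8.72 and 10.8 CPM in Ogt iKO and 5.75 and 5.54 CPM in control. Its log2 fold change was 0.79 (SE 0.179, adjusted p 0.00455, edgeR), and Ogt iKO replicate 2 was the higher of the treated libraries. Cnn2 (chromosome 10 from 79988600 to 79995400), a calponin of non-muscle cells and the gene whose window with a CArG box is printed above, was at 89.0 and 90.7 CPM against 58.1 and 60.3 CPM. Its rise of 0.60 on the log2 scale (SE 0.0679, adjusted p 9.682e-05, edgeR) was the smallest among the members that rose, and its mean was 89.9 ± 1.19 CPM in Ogt iKO (SD, n = 2). Cnn3 was the most abundant calponin per kilobase in all 4 libraries and did not pass the threshold (0.10, adjusted p 0.165, edgeR).

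Cald1 (chromosome 6 from 34598495 to 34775469) encodes caldesmon, which inhibits the myosin ATPase on the filament. It was at 330 and 291 CPM in Ogt iKO and at 93.3 and 92.1 CPM in control. The gain was 3.35-fold (log2 fold change 1.74, SE 0.0725, adjusted p 9.549e-07, edgeR), with 1.83 and 1.65 in the separate Ogt iKO libraries. The gene has muscle and non-muscle isoforms, which counts per gene do not separate.

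Among the tropomyosins, coiled coils that run along actin filaments, Tpm1 and Tpm4 rose and Tpm2 and Tpm3 did not pass the threshold. Tpm1 (chromosome 9 from 67022590 to 67049672) was at 395 and 366 CPM in Ogt iKO and 168 and 176 CPM in control, a rise of 1.15 on the log2 scale (SE 0.0626, adjusted p 3.015e-06, edgeR). Tpm2 (chromosome 4 from 43513726 to 43523583), also a muscle tropomyosin, was at 36.7 and 33.6 CPM against 40.1 and 39.9 CPM. Its log2 fold change was -0.18 (SE 0.0830, adjusted p 0.0796, edgeR) and was -0.02 with library totals alone. Tpm4, a non-muscle form, rose by 0.48 (adjusted p 4.203e-04, edgeR), and Tpm3 had -0.09 (adjusted p 0.212, edgeR). Of the 50-base stretches of Tpm3, 23.2% are shared with other genes, and of Tpm4 11.7%. Per kilobase of exon, Tpm1 took 22.2% and 24.1% of the summed tropomyosin level in control and 36.6% and 36.7% in Ogt iKO, and the share of Tpm2 went from 11.8% and 12.2% to 7.59% and 7.51%.

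Myl9 (chromosome 2 from 156775408 to 156781657) encodes the regulatory light chain of smooth muscle myosin. It was at 34.7 and 27.5 CPM in Ogt iKO and 13.3 and 13.8 CPM in control (1.20 on the log2 scale, SE 0.131, adjusted p 7.882e-05, edgeR). The other regulatory light chains rose less, with 0.68 for Myl12a (adjusted p 4.267e-05, edgeR) and 0.20 for Myl12b (adjusted p 0.0400, edgeR), a call that was lost with DESeq2, RLE factors or no filter and without Ogt iKO replicate 2 or control replicate 1. Myl6, the essential light chain, rose by 0.44 (adjusted p 0.00303, edgeR). Transcripts of Myl12a and Myl12b share 16.4% and 19.1% of their 50-base stretches with other genes, mostly with each other, and the values of both are uncertain.

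Synpo2l (chromosome 14 from 20658945 to 20668354) encodes a relative of synaptopodin found at the Z-discs of striated muscle. It was counted 194 and 162 times in Ogt iKO and 7 and 11 times in control, with a log2 fold change of 4.20 (SE 0.258). Synpo2l passed the filter on low counts through the treated group, since a control library lay under the minimum, while the other members were over it in both controls. The separate Ogt iKO libraries lay 4.04 and 3.92 above the control mean. Synpo2, also called myopodin, rose too (13.2 and 12.7 CPM against 2.78 and 3.91 CPM, a log2 difference of 1.95, SE 0.197, adjusted p 5.390e-05, edgeR). Synpo did not pass the threshold (0.45, adjusted p 0.351, edgeR), and its value changed sign between the treated libraries, at 18.7 and 6.38 CPM against 8.27 and 10.2 CPM in control.

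Of the 14 paralogs, 8 were higher and 1 was lower, with a median log2 fold change of 0.44, beside 33.2% and 32% of all genes tested. The members had larger fold changes than every paralog of their family among the calponins and myosin light chains. The same order among the transgelins and synaptopodins is not independent of the choice of Tagln and Synpo2l for their rise. Acta1 and Actc1 exceeded both actin members, and Tpm3 and Tpm4 exceeded Tpm2. These differences between genes were not tested.

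With each treated library set apart, 6 of the 7 members not picked for their rise were above both controls in each, beside 47.9% of all genes tested in replicate 1 and 45.9% in replicate 2, and the median of the fibroblast markers was above the control mean in replicate 1 only. In Ogt iKO replicate 1 the median difference from the control mean was 1.59 for the members and 0.79 for the fibroblast markers. In Ogt iKO replicate 2 it was 1.05 for the members and -0.86 for the markers, of which 25 of 28 lay below both controls. Over the 7 members not picked for their rise, the medians were 1.20 and 0.99. The summed level of the members was 1307 and 1132 CPM in Ogt iKO and 460 and 455 CPM in control. Per 100 CPM of fibroblast markers, that is 22.6 and 45.8 CPM of members in Ogt iKO and 13.3 and 11.9 CPM in control. For the 7 not picked it is 15.6 and 33.3 CPM in Ogt iKO and 11.0 and 10.1 CPM in control. These ratios depend on the markers summed. The 8 defining markers alone summed to 2210 and 478 CPM in Ogt iKO and 848 and 979 CPM in control. The 7 not picked summed to 900 and 823 CPM in Ogt iKO and 380 and 389 CPM in control. In replicate 1 both sums lay above both controls, and in replicate 2 only the sum of the 7 members did. In the fit without Ogt iKO replicate 1, the median log2 fold change of the 7 not picked was 1.03. Without Ogt iKO replicate 2 it was 1.18. Each of these fits holds 1 treated library, so its spread comes from the 2 controls alone. Of the 10 members, 8 were higher in Ogt iKO replicate 1 than in replicate 2, beside 7232 of the 14525 genes tested. Acta2 and Actg2 were the members with the widest gap between the treated libraries, with 0.86 and 0.85 more in replicate 1 on the log2 scale. The median gap was 1.89 for the fibroblast markers. The part of fibroblast RNA in those gaps was not tested.

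**Figure D2:**
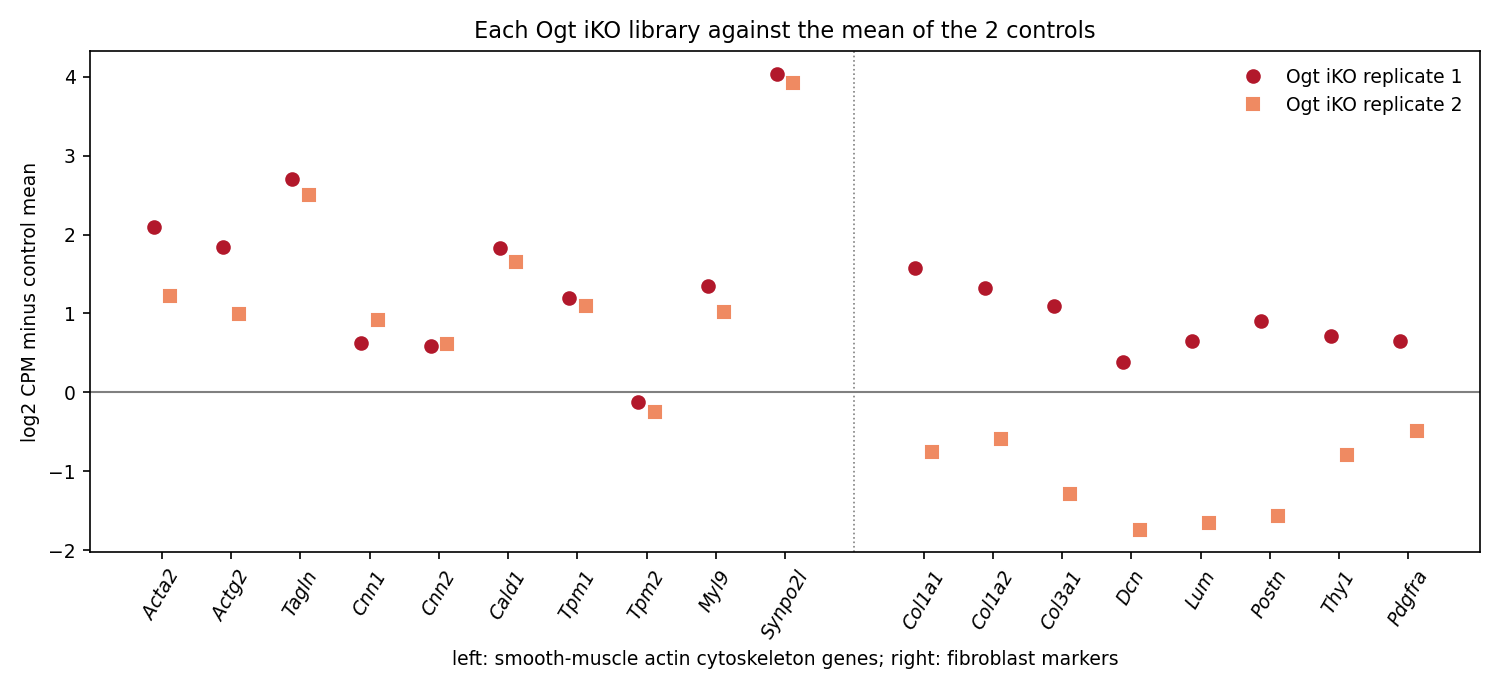
Difference of log2 CPM (prior count 2) between each Ogt iKO library and the mean of the 2 controls (y axis), for the 10 members on the left and 8 defining fibroblast markers on the right (x axis); circles are Ogt iKO replicate 1 and squares replicate 2. The markers lie above 0 in replicate 1 and below 0 in replicate 2, while 9 of the members lie above 0 in both.

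Thy1, which encodes CD90, an antigen used in the sort, followed the fibroblast markers, at 25.6 and 8.90 CPM in Ogt iKO and 15.6 and 15.6 CPM in control. Epcam, which encodes CD326, the other antigen, and is usually a marker of embryonic stem cells, was at 280 and 287 CPM against 347 and 307 CPM. Of the 28 fibroblast markers, 3 were called higher and 1 lower in the fit of all libraries, beside 33.2% and 32% of all genes tested. Those higher were Twist1 (1.45), Pdgfrb (1.61) and Sparc (0.82), and Vim, vimentin, was lower (-0.87). With a robust estimate of the spread the calls of Sparc and Vim were lost (adjusted p 0.0831 and 0.166, edgeR). With a treated library left out, the median log2 fold change of this list was 0.77 without Ogt iKO replicate 2 and -0.86 without Ogt iKO replicate 1. Each of these fits holds 1 treated library, so the gap between the treated libraries does not enter its spread.

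The wider contractile apparatus held calls in both directions. Of 39 other contractile and actin-binding genes, 20 were higher and 8 were lower, with a median log2 fold change of 0.22. These are 51.3% and 20.5% of the list, against 33.2% and 32% of all genes tested. Myh11, the smooth muscle myosin heavy chain and the most specific of the smooth muscle genes, was counted 61 and 56 times in Ogt iKO and 9 and 9 times in control (2.60 on the log2 scale, SE 0.291, adjusted p 9.199e-05, edgeR). Like Synpo2l, it passed the filter on low counts through the treated group, as did Tmod1, another of the 20. Lmod1, a leiomodin that nucleates actin filaments, had 83 and 67 counts against 18 and 29 (1.58, adjusted p 0.00115, edgeR). Mylk, the kinase of the regulatory light chain, had 40 and 25 counts against 16 and 16, a rise of 0.93 (adjusted p 0.0317, edgeR) that was lost with DESeq2 (adjusted p 0.243) and, with edgeR, without Ogt iKO replicate 1 (0.219), control replicate 1 (0.120) or control replicate 2 (0.117). Flnc, the muscle filamin, went from 45.6 and 45.5 CPM to 162 and 141 CPM (1.73, adjusted p 1.324e-06, edgeR), and Csrp1, a LIM protein of smooth muscle, rose by 1.11 (adjusted p 5.928e-06, edgeR).

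Other smooth muscle genes fell or did not change past the threshold. Smtn, smoothelin, was counted 617 and 687 times in control and 324 and 321 times in Ogt iKO (-1.10 on the log2 scale, SE 0.0965, adjusted p 2.714e-05, edgeR). Opposite-strand exons cover 16.3% of its exon length. Smtnl2, a smoothelin-like gene, had a log2 fold change of -1.78 (adjusted p 3.517e-06, edgeR) and Csrp2, a second LIM protein of smooth muscle, -1.49 (adjusted p 2.629e-06, edgeR). Des, desmin, was at 12.6 and 13.7 CPM against 15.0 and 14.9 CPM (-0.19, adjusted p 0.219, edgeR).

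Among SRF and its cofactors, no tested gene was called higher. Srf was at 51.9 and 51.8 CPM in Ogt iKO and 68.6 and 68.4 CPM in control, which is -0.40 on the log2 scale (SE 0.0708, adjusted p 0.00118, edgeR). Mrtfa had -0.10 (adjusted p 0.348, edgeR) and Mrtfb 0.04 (adjusted p 0.723, edgeR), and both values changed sign in some alternatives. Myocd, the cofactor specific to muscle, had 3 and 7 counts in Ogt iKO and 1 and 2 in control and was not tested. Elk1, a competing partner of SRF, fell by 0.41 on the log2 scale (adjusted p 0.00191, edgeR). Of the 8 regulators tested, 2 were higher (Phactr1, 0.80, and Scai, 0.44, both known to act on MRTF) and 2 lower, with a median of -0.03, beside 33.2% higher and 32% lower over all genes tested. DESeq2 called neither of the 2 higher. With edgeR, both were lost without control replicate 2, and Scai was also lost without Ogt iKO replicate 1 or control replicate 1.

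Of 24 SRF and MRTF targets outside the member families, 12 were higher and 6 were lower, with a median of 0.45. Of the 12, Ankrd1 passed the filter on low counts through the treated group. Over all genes tested, 33.2% were higher and 32% lower. Ccn2 and Ccn1, secreted matricellular proteins that are also targets of the Hippo pathway, had the smallest adjusted p. Ccn2 went from 34.4 and 35.0 CPM to 164 and 162 CPM (2.23, SE 0.0635, adjusted p 2.486e-07, edgeR), and opposite-strand exons cover 23.2% of its exon length. Ccn1 went from 33.7 and 34.7 CPM to 175 and 162 CPM (2.30, adjusted p 2.855e-07, edgeR). Amotl2, an angiomotin of the same pathway, rose by 1.51 (adjusted p 2.105e-06, edgeR). Fblim1, which links filamin to adhesion sites, went the other way (-1.72, adjusted p 1.114e-06, edgeR).

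TGF-beta, a known inducer of the contractile genes in fibroblasts and smooth muscle, was represented by 20 genes, of which 10 were higher and 2 lower (median 0.53), where the shares over all genes tested were 33.2% and 32%. Tgfbi, a secreted matrix protein induced by TGF-beta, rose by 1.52 (adjusted p 6.911e-05, edgeR). The feedback inhibitor Smad7 and the receptor Tgfbr1 fell, by 1.08 and 0.68 (adjusted p 1.277e-05 and 3.827e-04, edgeR). In 19 of the 20 genes Ogt iKO replicate 1 was above replicate 2, as it was in all 28 fibroblast markers. Over all genes tested that held for 7232 of 14525. The median log2 fold change of the list was 0.19 without Ogt iKO replicate 1 and 0.72 without replicate 2. Each of these fits holds 1 treated library, so its spread comes from the 2 controls alone. The calls of these fits, given next, therefore do not take in the gap between the treated libraries. Without Ogt iKO replicate 1 the list had 6 of 20 higher and 4 lower, where 30.3% and 29.9% of all genes were called, and without replicate 2 it had 13 higher and 3 lower, where 32.1% and 31.8% were.

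**Figure D3:**
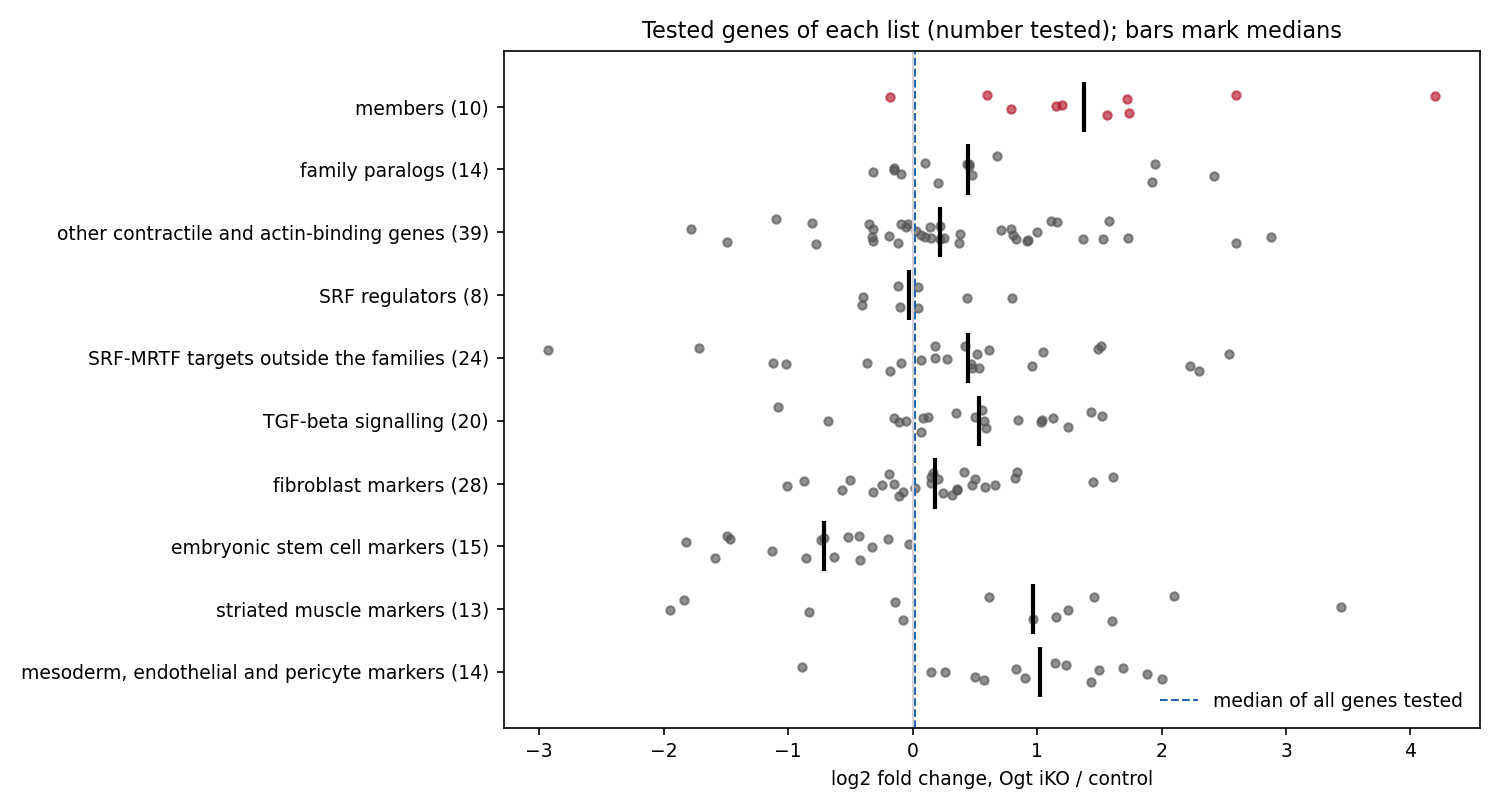
Log2 fold change of Ogt iKO over control (x axis) for each tested gene of the 10 lists (y axis, with the number tested); points are genes, black bars list medians, and the dashed line is the median of all genes tested, 0.02. The members have a median of 1.38, the SRF regulators -0.03 and the embryonic stem cell markers -0.71.

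Profiles most like those of the picked genes were sought among 11386 genes whose mean log2 CPM was 2 or more, by the Euclidean distance between centred log2 CPM over the 4 libraries. Among those nearest to Tagln were Glrx (distance 0.123), Cpm (0.143), F3 (0.151) and Gbp4 (0.162). Those nearest to Acta2 were Sema3c (0.168), Osbpl5 (0.251), Ptprm (0.278), Eln (0.296) and Nr2f2 (0.304), which share its higher value in Ogt iKO replicate 1. For Synpo2l they were Clic5 (0.219), Asb9 (0.271), Egr4 (0.347), Cd274 (0.720) and Neurog3 (0.729). The likeness rests on 4 libraries. No other member was among the 5 nearest genes of Tagln, Acta2 or Synpo2l.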

How the data were processed

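The authors deposited a table of raw counts per gene symbol for each library, with no normalization; STAR, Picard and the mm10 build (GRCm38) are named in the submitters' processing notes, while versions, annotation and the strand counted are not given in the sources used here. Per the labels' protocols the library kit was stranded. The tables held 0 rows without a gene name.

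Counts were fitted with edgeR 4.0.16 in R 4.3.3 (glmQLFit and glmQLFTest, TMM, filterByExpr), all 4 libraries in a single fit with no covariate, and checked on simulated data. The Benjamini-Hochberg adjustment covered the 14525 tested genes. CPM uses TMM-scaled library sizes, levels per kilobase use raw totals and exon lengths of GENCODE M21, and log2 CPM has a prior count of 2. An exact test of a single value of 2 against 2 libraries cannot go below 0.333. SE is the fold change over the root of its F statistic. Positions and promoter windows are from RefSeq (GRCm38.p6). Shared stretches of 50 bases were counted among GENCODE transcripts.

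The members and lists were chosen with earlier results of these data known. Named genes were Ogt, the members and their paralogs, Srf and its cofactors, Myh11, Smtn, Mylk, Lmod1, Des, 8 fibroblast markers, Epcam, the lowest adjusted p in each list (up to 4 genes), and the 5 nearest profiles. A few genes that this rule names are not reported here. Pcsk7 was added after its overlap with Tagln was seen. Alternatives were RLE factors, library totals, DESeq2 1.42.0, other filters, a robust spread, the replicate number as a block, and each library left out.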

Additional observations from a re-analysis of the deposited data

How the results depend on the processing

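Of the 7 members not picked for their rise, 6 were called higher under each alternative that kept all 4 libraries. Over all genes tested, those alternatives called 3606 (DESeq2) to 6116 (library totals) higher, against 4827 in the main fit. All 77 values of the 7 members, over the 11 alternatives, kept their direction. With each library left out in turn, the median log2 fold change of the 7 ran from 1.03 to 1.18. The replicate numbers share no stated source, and the deviations of same-numbered libraries had a correlation across genes of 0.086. With the replicate block, 4922 genes were higher and 4719 lower, the paralogs had 0 lower and the fibroblast markers 2 lower. The paralogs also had 0 lower, against 1, with RLE factors, with library totals and with a CPM of at least 1 in 2 libraries. A robust spread left 0 fibroblast markers lower. DESeq2 called 0 SRF regulators higher, 1 striated muscle marker lower and 4 mesoderm, endothelial and pericyte markers higher. It also called fewer of all genes tested than the main fit, 3606 higher and 3921 lower. A fit with a library left out keeps 1 library in that group, so its spread comes from the other group alone. With each library left out in turn, the counts ran from 0 to 2 for paralogs lower, 0 to 2 for SRF regulators higher, 6 to 13 for TGF-beta genes higher, 2 to 4 for TGF-beta genes lower, 3 to 22 for fibroblast markers higher, 1 to 23 for fibroblast markers lower, and 5 to 10 for mesoderm, endothelial and pericyte markers higher. Among the genes named here, the log2 fold changes that changed sign with library totals were those of Tagln3 (0.02), Actb (0.02), Tpm3 (0.08), Mrtfa (0.07) and Lum (0.09), and with the replicate block those of Col3a1 (-0.07) and Postn (-0.22). With each library left out, values ran across 0 for Tagln3 (-0.41 to 0.07), Synpo (-0.53 to 0.99), Mrtfb (-0.07 to 0.15), Col1a1 (-0.75 to 1.55), Col1a2 (-0.59 to 1.30), Col3a1 (-1.31 to 1.04), Dcn (-1.75 to 0.35), Lum (-1.67 to 0.62), Postn (-1.57 to 0.88), Thy1 (-0.80 to 0.69) and Pdgfra (-0.50 to 0.64). For these 8 fibroblast markers the lowest value was without Ogt iKO replicate 1 and the highest without replicate 2. Beyond the samples left out, the cause was not tested. At 14668489 to 16504204 counts per library, counting error bears on genes with few control counts, such as Myocd (1 and 2), Synpo2l (7 and 11) and Actg2 (24 and 23), and each value rests on 2 libraries a group.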

Other observations

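Markers of striated muscle and of mesoderm, endothelium and pericytes also held calls. Of 24 striated muscle markers 13 could be tested, and 7 were higher and 3 lower, beside 33.2% and 32% of all genes tested, with a summed level of 77.9 and 77.0 CPM in Ogt iKO and 41.7 and 50.5 CPM in control. Of the 7 higher, Mef2c, Tnnt3, Tnni3 and Tnnc1 passed the filter on low counts through the treated group. Mef2c, a transcription factor of muscle and other lineages, was counted 99 and 87 times in Ogt iKO and 8 and 8 times in control (log2 fold change 3.44, adjusted p 1.584e-05, edgeR). Tnnt1, slow skeletal troponin T, rose by 1.15, and Ttn, titin, by 0.97 (adjusted p 5.790e-05 and 0.00148, edgeR). Myh3, embryonic myosin heavy chain, had a log2 fold change of -1.95 (adjusted p 5.019e-04, edgeR).

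Of 14 tested markers of mesoderm, endothelium and pericytes, 8 were higher and 1 lower, beside 33.2% and 32% of all genes tested. Of the 8, Cdh5, Hand1 and Foxf1 passed the filter on low counts through the treated group. Tek, the angiopoietin receptor, was at 24.2 and 28.9 CPM in Ogt iKO and 6.01 and 7.30 CPM in control (log2 fold change 2.00, adjusted p 1.327e-05, edgeR). Mcam, a pericyte and endothelial adhesion molecule, rose by 1.14 and Eomes, a mesendoderm factor, by 1.23. Pecam1, which embryonic stem cells also express, had a log2 fold change of -0.89. Of these lists, 7 of the 14 genes here and 5 of the 13 striated muscle markers were higher in Ogt iKO replicate 1 than in replicate 2. Over all genes tested that held for 7232 of 14525.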
